A study of Mus musculus with 15 samples.

Results

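The genes of DNA replication and of the passage from G1 into S phase were followed in D1 cells across 5 groups of arrays. Of 37 genes listed by symbol, 36 were measured among 19937 genes on the arrays, each through the probe set of that symbol with the highest mean over 15 arrays. The remaining gene, Cdkn1a, lay on a probe set that carries several gene symbols and was not analysed here. Total RNA from D1 cells, a long-term dendritic cell line from the spleen of C57BL/6 mice, was profiled on Affymetrix Mouse Gene 1.0 ST arrays, which carry 1 colour. The groups, of 3 arrays each, were nontreated cells, cells stimulated with 10 µg/ml curdlan (2 h and 4 h), and cells that had FK506 in the culture besides curdlan (2 h and 4 h). No genotype other than the strain is given in the labels, no duration of culture is given for the nontreated cells, and cells given FK506 alone were not analysed here. The comparisons with FK506 therefore read its effect in the presence of curdlan. Each array is labelled as a biological replicate with no further statement of separate cultures, so p-values measure the spread between these samples, and 3 arrays per group limit the precision.

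DNA replication is prepared in G1, when the origin recognition complex, Cdc6 and Cdt1 load the ring of Mcm2 to Mcm7 onto origins, and starts in S phase, when Cdc45 and the GINS complex turn that ring into the active helicase. D-type cyclins and then E-type cyclins drive the phosphorylation of the retinoblastoma protein, which frees E2F transcription factors to activate many of the genes listed here. Dendritic cells grown in culture stop dividing as they mature, and untreated D1 cells are a growing line. Curdlan is a β-glucan recognised by the receptor dectin-1, and FK506 blocks the phosphatase calcineurin and thereby the NFAT transcription factors.

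Promoter sequence is shown first, because many of these genes are textbook targets of E2F. RefSeq promoter windows (build GRCm38.p6, from 250 bases before to 50 bases after the annotated start) were found for 29 of the 37 listed genes. On either strand, the letters TTTCCCGC or TTTGGCGC or TTTCGCGC or TTTGCCGC, taken here as an E2F motif, occurred in the windows of 12 of these 29 genes (41.4%), against 704 of 27025 genes with a window in the whole table (2.605%). A CCAAT box, searched as CCAAT, occurred in 19 of the 29 genes (65.5%) against 41.1% of all genes, and an Sp1 box, searched as GGGCGG, in 23 (79.3%) against 38.2%. Matches of the E2F letters on opposite strands can overlap. The 12 genes with an E2F match were Mcm3, Mcm5, Mcm6, Mcm7, Orc1, Cdc6, Cdt1, Pola1, Rfc3, Lig1, Uhrf1 and E2f2. A match is a description of letters in the window, not a binding site. The stretches upstream of the start below belong to the 6 genes with the largest falls at curdlan 4 h among those whose match lies upstream, written 5′ to 3′ on the strand of the gene with the matches in capitals.
Cdc6: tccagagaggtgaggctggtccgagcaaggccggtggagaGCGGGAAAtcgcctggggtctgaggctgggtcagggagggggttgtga
Uhrf1: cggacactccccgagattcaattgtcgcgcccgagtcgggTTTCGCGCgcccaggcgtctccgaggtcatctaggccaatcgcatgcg
Mcm6: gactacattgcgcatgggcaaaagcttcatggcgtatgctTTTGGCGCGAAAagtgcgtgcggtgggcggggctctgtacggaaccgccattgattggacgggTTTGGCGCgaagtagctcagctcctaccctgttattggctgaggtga
Mcm7: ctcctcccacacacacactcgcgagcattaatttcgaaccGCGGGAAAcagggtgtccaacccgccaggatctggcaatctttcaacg
Mcm5: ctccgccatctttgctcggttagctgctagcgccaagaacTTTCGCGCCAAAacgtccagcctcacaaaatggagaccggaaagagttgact
Rfc3: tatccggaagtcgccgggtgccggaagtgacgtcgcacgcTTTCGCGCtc

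These stretches lie at chr11:98907973-98908060 on the plus strand for Cdc6, chr17:56304088-56304175 on the plus strand for Uhrf1, chr1:128359706-128359855 on the minus strand for Mcm6, chr5:138172001-138172088 on the minus strand for Mcm7, chr8:75109316-75109407 on the plus strand for Mcm5 and chr5:151651209-151651258 on the minus strand for Rfc3. Mcm6 holds 3 matches in its stretch, of which 2 overlap on opposite strands, Mcm5 holds 2 that overlap in the same way, and the other stretches hold 1 each. The Cdc6 stretch runs from 178 to 91 bases before the start. Mcm7 and Rfc3 each hold a further match at or after the start, which is not shown.

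Levels are given on the log2 scale of the deposited intensities, on which a difference of 1 is a doubling. Single genes are not compared with each other by level, only with the median and upper quartile of all genes. A gene was called changed at an adjusted p under 0.05 and a fold change of at least 1.5, which is 0.585 on the log2 scale. In nontreated cells all 36 genes were above the median level of all genes (6.82), and 31 were above the upper quartile (9.12). Of the dendritic cell markers 12 of 13 were above that median, Flt3 being below it, and the summed level of the list ran from 15.14 to 15.32 in nontreated cells and from 15.49 to 15.51 at curdlan 4 h. Of the macrophage markers 5 of 6 were above the median, and their summed level ran from 13.45 to 13.58 in nontreated cells and from 13.35 to 13.39 at curdlan 4 h. Of the T cell markers 1 of 6 was above the median, with Cd3d, Cd3e, Cd3g, Cd4 and Cd8a below it, and their summed level ran from 10.02 to 10.09 in nontreated cells and from 9.74 to 9.76 at curdlan 4 h. Of the NK cell markers 1 of 6, Klrk1, was above the median, and their summed level ran from 8.98 to 9.38 in nontreated cells and from 9.66 to 9.67 at curdlan 4 h, where Klrk1 rose (0.67). Of fibroblast markers 3 of 8 and of B cell, neutrophil and mast cell markers 0 were above the median. At 4 h with FK506 besides curdlan, the summed level ran from 9.27 to 9.38 for T cell markers and from 9.45 to 9.53 for NK cell markers, both below curdlan alone without overlap, and from 13.42 to 13.44 for macrophage markers, above it. The T cell marker Cd5 (−0.64) and the macrophage markers Mertk (−2.20) and Cd14 (−0.90) were called lower with FK506 at 4 h. The part of these shifts in the results below was not tested. Replicate 1 of the nontreated cells and replicate 3 of curdlan 2 h were outlying, with array weights of 0.0781 and 0.119 in limma, which gives noisy arrays a weight below 1. The median change of all genes at curdlan 4 h was −0.12, and centring each array on its median moved it to −0.01. Over all genes, 1007 rose and 828 fell at curdlan 4 h, against 1300 and 545 with arrays centred on their median and 839 and 1327 with the median of unnamed probe sets as a covariate. In bulk RNA, fewer cells in S phase and less of these RNAs in each cell cannot be told apart.

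After 4 h of curdlan, 25 of the 36 genes fell and 0 rose, where 4.15% of all genes fell. The median change of the 36 genes was −0.72, with a range from −1.41 for Cdc6 to 0.41 for Ccnd2, beside −0.12 over all genes. At an adjusted p under 0.05 alone, 34 of the 36 were lower, against 23.2% of all genes. In 33 of them all 3 values at curdlan 4 h lay below all 3 nontreated values, which held for 33.5% of all genes. Orc1 and Ccnd2 were the 2 genes whose mean was not below that of nontreated cells, and the nontreated mean of Orc1 held a low value of outlying replicate 1 (6.97). Without both outlying arrays, 27 of the 36 fell and the median was −0.79. Of the 25 called genes, 19 were called under each of 25 alternatives that kept the fold threshold. The other 6, Ccnd3, Ccne2, Pole, Prim1, Rfc2 and Rfc3, were not called with arrays centred on their median (−0.57 to −0.49). Without nontreated replicate 2, Pole (−0.58), Rfc3 (−0.56) and Ccne2 (−0.58) were not called, and without nontreated replicate 3, Rfc3 and Ccne2 (both −0.54) were not called. Rfc3 was also not called without curdlan 4 h replicate 1 (−0.57), whereas Orc6 (−0.60) and Pola1 (−0.61) were called lower without nontreated replicate 1.

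**Figure D1:**
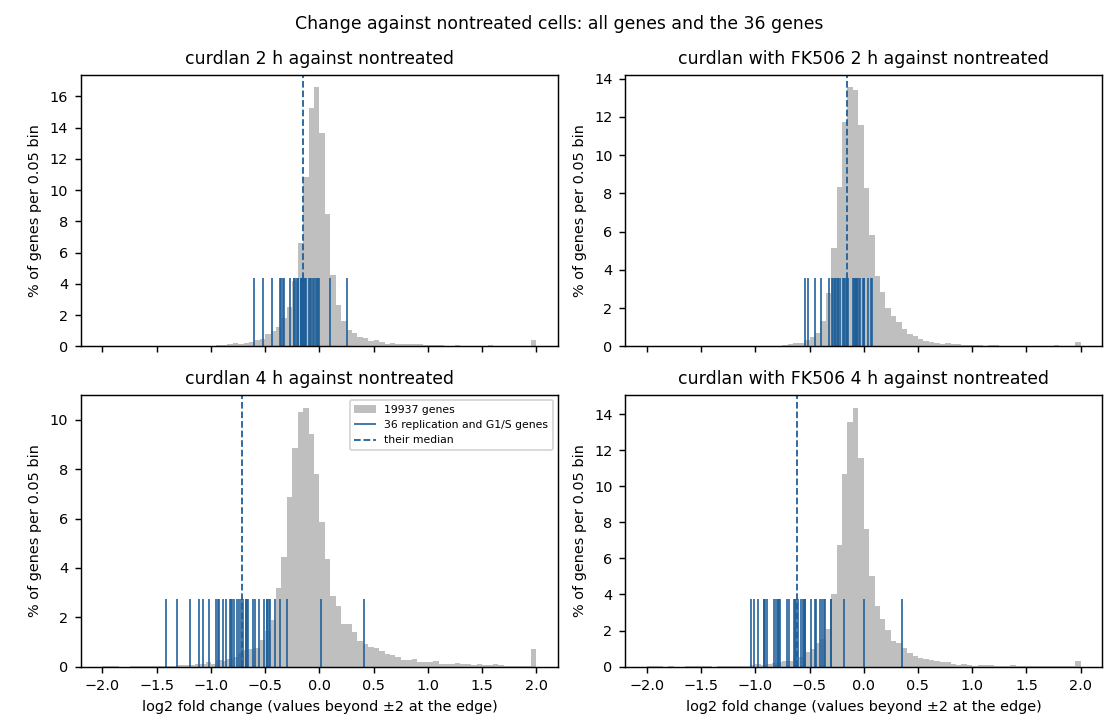
Distribution of log2 fold changes against nontreated cells for 19937 genes (grey bars, percent of genes per bin) with values beyond ±2 at the edge, and with each of the 36 replication and G1/S genes as a blue line and their median as a dashed line, for curdlan (left) and curdlan with FK506 (right) at 2 h (top) and 4 h (bottom). The medians of the 36 genes lie at −0.16 and −0.15 at 2 h and at −0.72 and −0.62 at 4 h.

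The genes of the replicative helicase moved together: all 6 of Mcm2 to Mcm7 fell at curdlan 4 h, by a median of −0.89. Mcm2 (probe set 10546163) read 11.05, 10.95 and 10.92 in nontreated cells, 10.68, 10.70 and 10.83 at curdlan 2 h, 9.84, 9.90 and 9.86 at curdlan 4 h, 10.66, 10.62 and 10.68 at curdlan with FK506 2 h, and 10.10, 10.02 and 10.05 at curdlan with FK506 4 h. The lowest values were those of curdlan 4 h, with no overlap with any other group. Mcm2 fell by 1.11 at curdlan 4 h (SE 0.05, adjusted p = 7.35e-10). Mcm6 (probe set 10357436) read 10.62, 10.59 and 10.66 in nontreated cells, 10.46, 10.45 and 10.51 at curdlan 2 h, 9.66, 9.67 and 9.67 at curdlan 4 h, 10.46, 10.34 and 10.37 at curdlan with FK506 2 h, and 9.57, 9.66 and 9.60 at curdlan with FK506 4 h. Both 4 h groups were below all the others, and those with FK506 were lower by a small margin with no overlap before rounding. Mcm6 fell by 0.95 (SE 0.04, adjusted p = 6.70e-10) with curdlan at 4 h. The other subunits fell at curdlan 4 h by 0.92 for Mcm3, 0.86 for Mcm7, 0.76 for Mcm5 and 0.71 for Mcm4. Mcm4 showed 0.10 at curdlan 2 h (95% interval −0.04 to 0.24), on the other side of 0 from the other 5.

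Among the genes that license origins, Cdc6 and Cdt1 fell the most of all 36, while the subunits of the origin recognition complex were not called. Cdc6 (probe set 10381072), the ATPase that recruits Cdt1 and the Mcm ring, read 8.27, 8.34 and 8.45 in nontreated cells, 7.74, 7.63 and 7.89 at curdlan 2 h, 6.96, 6.86 and 6.997 at curdlan 4 h, 7.75, 7.80 and 7.87 at curdlan with FK506 2 h, and 7.33, 7.29 and 7.32 at curdlan with FK506 4 h. The nontreated values were the highest, the 2 groups at 2 h overlapped, and the 2 groups at 4 h did not. It fell by 1.41 (SE 0.07, adjusted p = 1.20e-09) at curdlan 4 h, 2.66-fold. Cdt1 (probe set 10576140), which carries the Mcm ring to the origin, read 9.82, 9.78 and 9.78 in nontreated cells, 9.30, 9.23 and 9.30 at curdlan 2 h, 8.45, 8.53 and 8.46 at curdlan 4 h, 9.31, 9.21 and 9.32 at curdlan with FK506 2 h, and 8.80, 8.82 and 8.82 at curdlan with FK506 4 h. Its groups fell in the same order as those of Cdc6, with overlap between the 2 groups at 2 h. The fall at curdlan 4 h was 2.49-fold (−1.31, SE 0.04, adjusted p = 2.43e-11). Orc6, a small subunit of the origin recognition complex, showed −0.55 at curdlan 4 h, under the fold threshold. Orc1, its largest subunit, showed 0.01 with a 95% interval from −0.28 to 0.31 and read from 6.97 to 7.56 in nontreated cells, a range that held all 3 values at curdlan 4 h. The value of 6.97 was that of outlying replicate 1, whereas replicates 2 and 3 read 7.56 and 7.48. Beside these, Orc1 ran from 7.25 to 7.49 at curdlan 4 h and from 7.32 to 7.34 at curdlan with FK506 4 h.

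Of the factors that activate the helicase, Gins1 (−0.74) and Cdc45 (−0.72) fell at curdlan 4 h. Mcm10 (−0.48) and Gins2 (−0.36) had lower values in all 3 arrays and were not called. Of 7 genes for polymerases, primase, clamp and clamp loader, 4 fell at curdlan 4 h. These were the primase subunit Prim1 (−0.68), the clamp loader subunits Rfc2 (−0.66) and Rfc3 (−0.60), and the leading strand polymerase Pole (−0.61). The clamp loader subunit Rfc4 showed −0.51 and the polymerase α subunit Pola1 −0.48. Pcna, the sliding clamp, was the least changed of those below 0. Its probe set 10461391 read 12.49, 12.10 and 12.43 in nontreated cells, 12.30, 12.29 and 12.33 at curdlan 2 h, 12.01, 11.93 and 12.17 at curdlan 4 h, 12.25, 12.16 and 12.40 at curdlan with FK506 2 h, and 12.05, 12.08 and 11.97 at curdlan with FK506 4 h. Nontreated replicate 2 lay within the range of the curdlan 4 h arrays. The change at curdlan 4 h was −0.30 (SE 0.09, adjusted p = 0.0232) there and −0.26 on a second Pcna probe set, and Pcna has near-identical pseudogene copies, so both values are uncertain.

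All 4 genes for Okazaki fragment processing and for chromatin behind the fork fell at curdlan 4 h. Fen1, the flap endonuclease, fell by 0.83, the ligase Lig1 by 0.81, and Chaf1a, a subunit of the histone chaperone CAF-1, by 0.79. Uhrf1 (probe set 10446074), which brings the maintenance DNA methyltransferase to newly made DNA, read 10.07, 10.06 and 9.99 in nontreated cells, 9.71, 9.69 and 9.74 at curdlan 2 h, 8.94, 8.93 and 9.03 at curdlan 4 h, 9.55, 9.58 and 9.64 at curdlan with FK506 2 h, and 9.26, 9.24 and 9.25 at curdlan with FK506 4 h. No 2 groups overlapped, and FK506 values were below those of curdlan alone at 2 h and above them at 4 h. Uhrf1 fell 2.10-fold at curdlan 4 h (−1.07, SE 0.04, adjusted p = 1.56e-10). Among the genes of nucleotide supply, thymidine kinase Tk1 and the ribonucleotide reductase subunit Rrm2 (−0.89) fell. The other subunit, Rrm1, showed −0.47 and thymidylate synthase Tyms −0.41. Tk1 (probe set 10582809) read 10.21, 10.11 and 10.05 in nontreated cells, 9.73, 9.82 and 9.74 at curdlan 2 h, 8.94, 8.95 and 8.90 at curdlan 4 h, 9.71, 9.72 and 9.74 at curdlan with FK506 2 h, and 9.22, 9.25 and 9.16 at curdlan with FK506 4 h. Its 2 groups at 2 h overlapped and the other groups did not. Tk1 fell 2.29-fold at curdlan 4 h (−1.20, SE 0.05, adjusted p = 1.87e-10), and its second probe set gave −1.20 too.

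**Figure D2:**
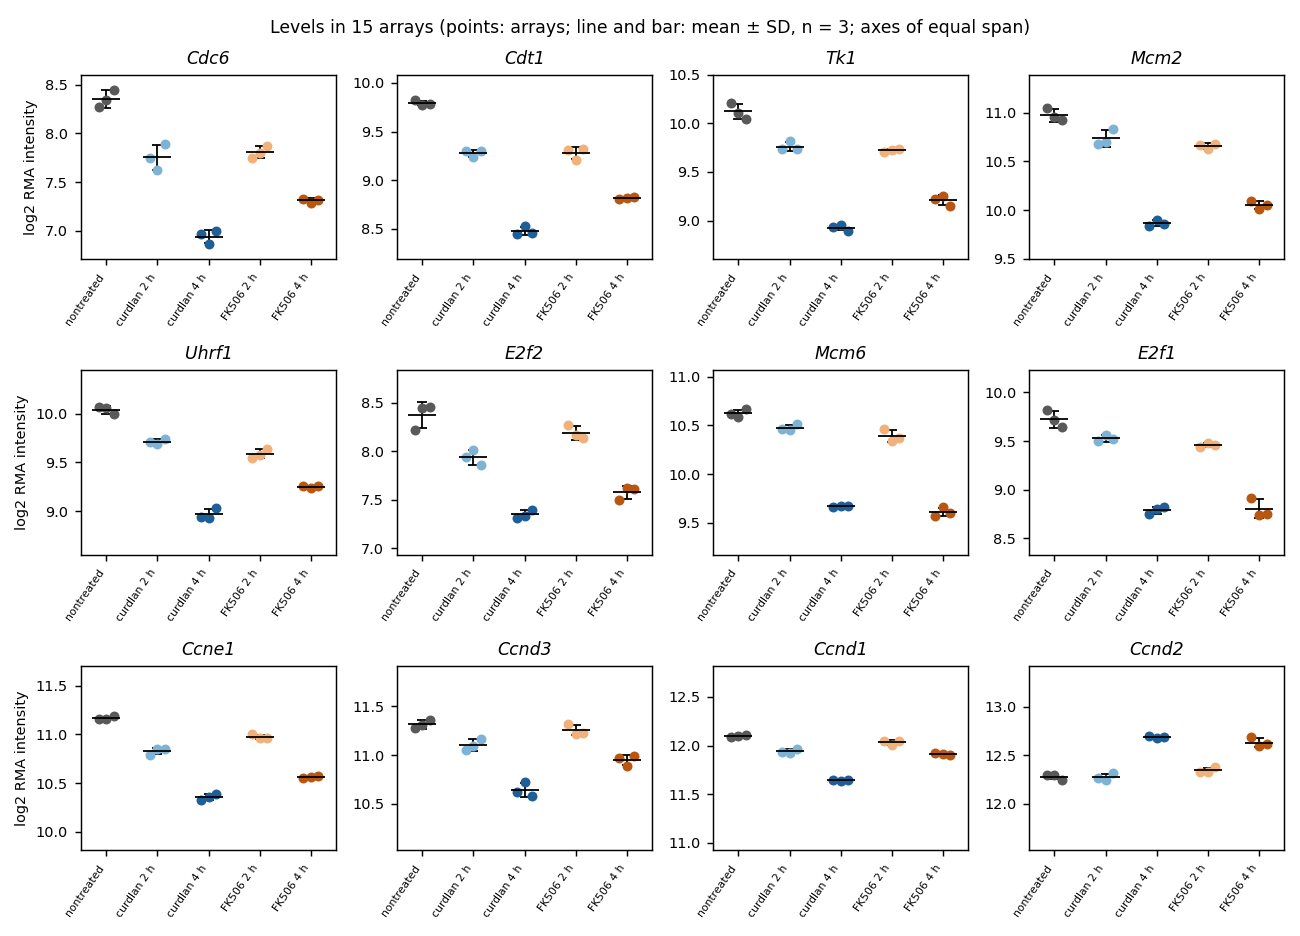
Log2 intensity of 12 genes in each of the 15 arrays by group (points), with the mean and SD of each group (n = 3); FK506 stands for curdlan with FK506, and every axis spans the same number of log2 units. Cdc6, Cdt1, Tk1 and Uhrf1 are lowest at curdlan 4 h, whereas Ccnd2 is highest there (12.67 to 12.69).

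Both E2F genes and both E-type cyclins fell at curdlan 4 h. E2f1 (probe set 10488785), an activator of S phase genes, read 9.82, 9.71 and 9.64 in nontreated cells, 9.50, 9.56 and 9.52 at curdlan 2 h, 8.75, 8.80 and 8.82 at curdlan 4 h, 9.43, 9.48 and 9.46 at curdlan with FK506 2 h, and 8.92, 8.74 and 8.75 at curdlan with FK506 4 h. The 4 h groups overlapped with each other and were below the rest, a fall of 0.93 with curdlan (SE 0.06, adjusted p = 1.23e-08). E2f2 (probe set 10509168), a second activator E2F, read 8.22, 8.44 and 8.45 in nontreated cells, 7.94, 8.02 and 7.86 at curdlan 2 h, 7.32, 7.34 and 7.40 at curdlan 4 h, 8.27, 8.16 and 8.13 at curdlan with FK506 2 h, and 7.50, 7.62 and 7.61 at curdlan with FK506 4 h. Of these groups only curdlan with FK506 2 h overlapped with nontreated cells, and E2f2 fell by 1.02 at curdlan 4 h (SE 0.07, adjusted p = 3.93e-08). Ccne1 (probe set 10562563), the cyclin E that activates Cdk2, read 11.15, 11.15 and 11.18 in nontreated cells, 10.79, 10.85 and 10.85 at curdlan 2 h, 10.33, 10.36 and 10.39 at curdlan 4 h, 11.00, 10.97 and 10.96 at curdlan with FK506 2 h, and 10.55, 10.56 and 10.57 at curdlan with FK506 4 h. No 2 groups overlapped, with FK506 values above those of curdlan alone at both times. Ccne1 fell by 0.80 at curdlan 4 h (SE 0.04, adjusted p = 7.35e-10). Ccne2 (probe set 10503264), its close relative, read 8.75, 9.37 and 9.46 in nontreated cells, 9.08, 9.29 and 8.79 at curdlan 2 h, 8.49, 8.52 and 8.56 at curdlan 4 h, 9.18, 9.13 and 9.13 at curdlan with FK506 2 h, and 8.52, 8.74 and 8.67 at curdlan with FK506 4 h. The low nontreated value and the low curdlan 2 h value were those of the 2 outlying arrays, and Ccne2 fell by 0.67 at curdlan 4 h (SE 0.16, adjusted p = 0.00385).

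The D-type cyclins, which pair with Cdk4 and Cdk6 and link growth signals to the cycle, did not share a direction. Ccnd1 (probe set 10569646) read 12.08, 12.09 and 12.11 in nontreated cells, 11.94, 11.92 and 11.96 at curdlan 2 h, 11.64, 11.63 and 11.64 at curdlan 4 h, 12.05, 12.00 and 12.05 at curdlan with FK506 2 h, and 11.92, 11.92 and 11.90 at curdlan with FK506 4 h. Its change at curdlan 4 h was −0.46 (SE 0.03, adjusted p = 1.11e-07), under the fold threshold, with no overlap between those 2 groups. Ccnd2 (probe set 10548105) read 12.29, 12.30 and 12.25 in nontreated cells, 12.26, 12.25 and 12.31 at curdlan 2 h, 12.69, 12.67 and 12.69 at curdlan 4 h, 12.33, 12.33 and 12.38 at curdlan with FK506 2 h, and 12.68, 12.59 and 12.62 at curdlan with FK506 4 h. Both 4 h groups were above all other arrays, at 0.41 with curdlan (SE 0.04, adjusted p = 1.39e-06) and 0.35 with curdlan and FK506, both under the fold threshold. Ccnd3 (probe set 10445688) read 11.28, 11.31 and 11.36 in nontreated cells, 11.05, 11.09 and 11.17 at curdlan 2 h, 10.62, 10.72 and 10.58 at curdlan 4 h, 11.32, 11.22 and 11.23 at curdlan with FK506 2 h, and 10.97, 10.89 and 10.99 at curdlan with FK506 4 h. Curdlan 4 h was the lowest group without overlap, and Ccnd3 was the 1 D-type cyclin that was called, at −0.67 (SE 0.05, adjusted p = 1.49e-07).

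At 2 h of curdlan the same genes had moved little: 1 of 36, Cdc6, fell (−0.60, SE 0.07, adjusted p = 1.67e-05), where 1.40% of all genes fell. Cdc6 was not called without curdlan 2 h replicate 2 (−0.54) or nontreated replicate 3 (−0.55), nor with arrays centred on their median or the quantile normalization repeated (both −0.56). The next largest changes at curdlan 2 h were −0.52 for Cdt1 and −0.43 for E2f2. By adjusted p alone 20 of 36 were lower, against 12.9% of all genes, and the median of the 36 was −0.16 beside −0.04 over all genes. From 2 h to 4 h of curdlan, 16 of the 36 genes fell, against 1.30% of all genes, with a median of −0.54. These 16 were all 6 Mcm genes, Cdc6, Cdt1, Cdc45, Gins1, Prim1, Lig1, Uhrf1, Rrm2, Tk1 and E2f1. Their largest change between the times was that of Mcm2, at −0.87 (SE 0.05). The call of Mcm5 (−0.59), Gins1 (−0.59) or Prim1 (−0.59) was lost when some single arrays were left out. Mcm5 was then at −0.55 without curdlan 2 h replicate 3 and at −0.58 without curdlan 4 h replicate 1 or 3. Gins1 was at −0.57 without curdlan 2 h replicate 1 or curdlan 4 h replicate 2 and at −0.50 without curdlan 2 h replicate 2. Prim1 was at −0.56 and −0.55 without curdlan 2 h replicate 1 and 2, and at −0.58 without curdlan 4 h replicate 1. E2f2 was called between the times without curdlan 2 h replicate 3 (−0.63) or curdlan 4 h replicate 3 (−0.61), Ccne2 without curdlan 2 h replicate 3 (−0.66), and Fen1 without curdlan 4 h replicate 3 (−0.59).

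**Figure D3:**
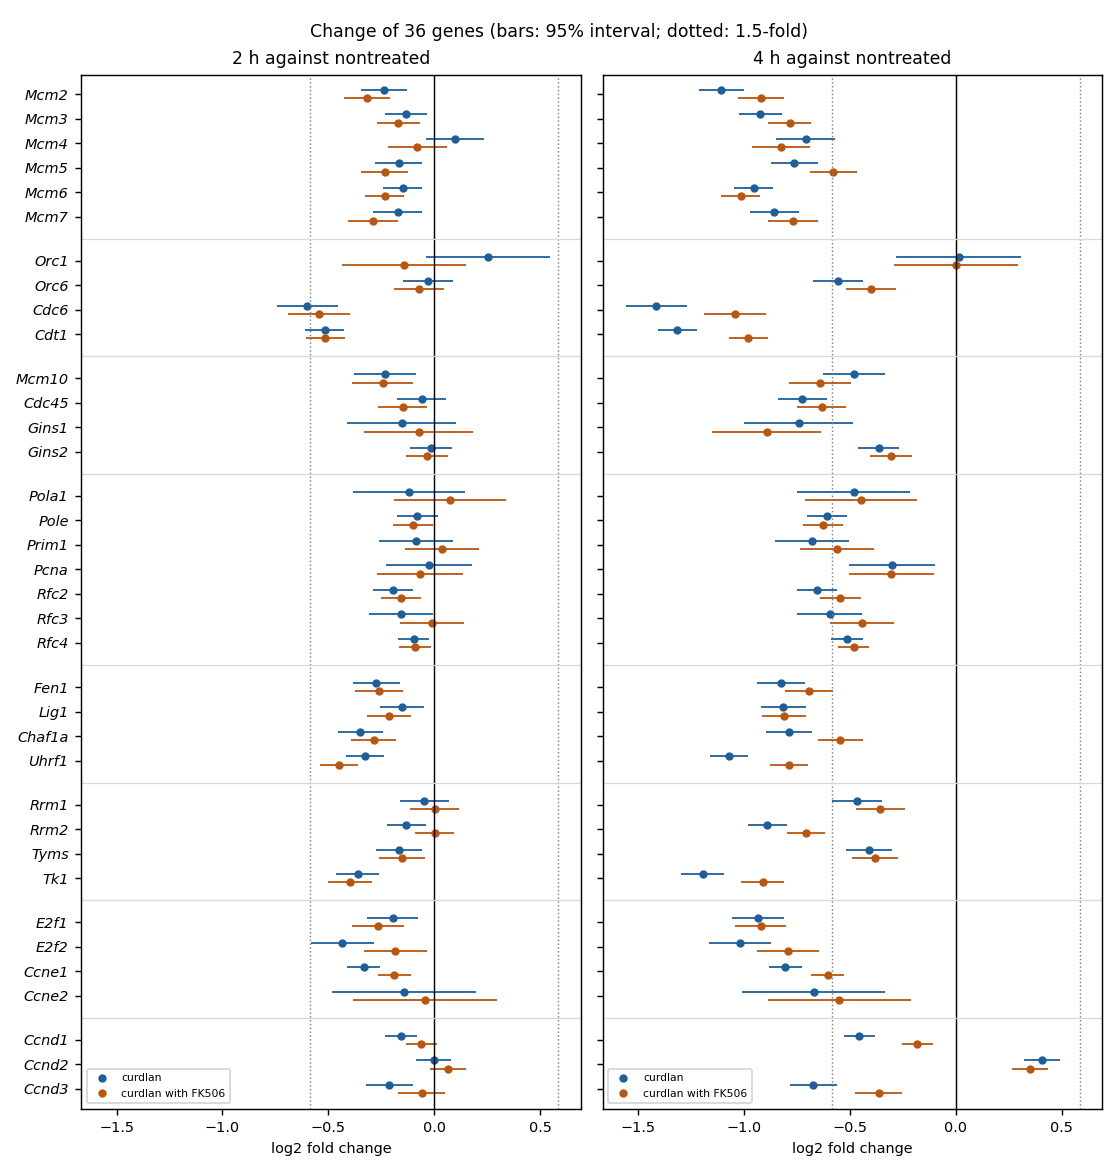
Log2 fold change of the 36 genes against nontreated cells at 2 h (left) and 4 h (right), for curdlan (blue) and curdlan with FK506 (orange), grouped by role from Mcm genes at the top to D-type cyclins at the bottom. Points are limma estimates with 95% intervals, and dotted lines mark 1.5-fold; at 4 h nearly all points lie left of 0, with Orc1 (0.01 and 0.00) and Ccnd2 (0.41 and 0.35) as the exceptions.

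With FK506 present, curdlan was followed by a fall of most of the same genes at 4 h. At 2 h, 0 of 36 genes were called against nontreated cells, where 0.537% of all genes fell. Cdc6 was called there without nontreated replicate 1 (−0.59). At 4 h, 19 of 36 fell and 0 rose, where 2.43% of all genes fell, with a median of −0.62 beside −0.08 over all genes. The largest falls were those of Cdc6 (−1.04), Mcm6 (−1.02), Cdt1 (−0.98), E2f1 (−0.92), Mcm2 (−0.92) and Tk1 (−0.91). Mcm10 was called with FK506 (−0.64) and not with curdlan alone (−0.48). Calls present with curdlan alone and missing with FK506 were those of Mcm5 (−0.58), Prim1 (−0.56), Rfc2 (−0.54), Rfc3 (−0.44), Chaf1a (−0.55), Ccne2 (−0.55) and Ccnd3 (−0.36). Of these, Mcm5 was called without curdlan with FK506 4 h replicate 1 (−0.61) or nontreated replicate 3 (−0.62). Prim1 (−0.59) and Ccne2 (−0.60) were called without curdlan with FK506 4 h replicate 2, and without nontreated replicate 1 they were at −0.66 and −0.77. With arrays centred on their median, Ccne1, Cdc45, Mcm10 and Pole were not called with FK506 at 4 h (−0.57 to −0.53). The 2 comparisons share the nontreated arrays, so the values are set side by side only. From 2 h to 4 h with FK506, 10 of the 36 fell, where 0.782% of all genes fell, with a median of −0.45. These were Mcm2, Mcm3, Mcm4, Mcm6, Gins1, Prim1, Lig1, Rrm2, E2f1 and E2f2. Leaving out 1 array of the FK506 groups lost the call of Mcm2 (−0.58, without 4 h replicate 2), Mcm3 (−0.58, without 4 h replicate 3), Lig1 (−0.58, without 4 h replicate 2 or 3), E2f2 (−0.57, without 2 h or 4 h replicate 1) and Prim1 (−0.58 without 2 h replicate 1, −0.57 without 2 h replicate 3 or 4 h replicate 1).

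Set directly against curdlan alone, FK506 gave no called change in the 36 genes, and some smaller differences at 4 h. At 2 h, 0 of 36 were called, where 1.12% of all genes were. At 4 h, 0 of 36 were called, where 1.75% of all genes were. For all 36 genes the 95% interval of the 4 h difference lay within 1.5-fold in either direction, and at 2 h it did so for 35, Orc1 (−0.40, −0.69 to −0.10) being the exception. Smaller differences were measured at 4 h, where 12 of the 36 genes were higher with FK506 by adjusted p alone, against 5.64% of all genes, and 0 were lower. They were Cdc6 (0.37, SE 0.07, adjusted p = 0.00197), Cdt1 (0.34, SE 0.04, adjusted p = 0.000104), Ccnd3 (0.31), Tk1 (0.28), Uhrf1 (0.28), Ccnd1 (0.27), Chaf1a (0.24), E2f2 (0.23), Ccne1 (0.20), Mcm2 (0.19), Mcm5 (0.19) and Rrm2 (0.18). In folds, these differences ran from 1.13 for Rrm2 to 1.29 for Cdc6. On the second Tk1 probe set the difference was 0.24 and did not pass (adjusted p = 0.0858 in limma with every probe set tested). In 20 of the 36 genes all 3 FK506 values at 4 h lay above all 3 values of curdlan alone, which held for 21.7% of all genes, and the median difference was 0.12 beside 0.03 over all genes. The number higher by adjusted p alone was 6 with arrays centred on their median and from 8 to 14 when 1 array was left out. It was 8 without curdlan 4 h replicate 1 and 8 without curdlan with FK506 4 h replicate 1. Without nontreated replicate 1 it was 14 and Mcm10 was lower with FK506, and without both outlying arrays it was 18, with Mcm4 and Mcm10 lower. With every probe set tested, and Tk1 read on its second one, the number was 10, without Tk1 and E2f2.

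By adjusted p alone, 2 of the 36 genes were higher with FK506 at 2 h, a share near the 4.48% of all genes. The 2 genes were Ccne1 (0.15, SE 0.04, adjusted p = 0.0248) and E2f2 (0.25, SE 0.07, adjusted p = 0.0411). That number was 0 without curdlan 2 h replicate 1 or without any one array of curdlan with FK506 2 h. It was 1 without curdlan 2 h replicate 3, any one array of curdlan 4 h, or replicate 2 or 3 of curdlan with FK506 4 h, and 3 without nontreated replicate 1. By the same measure Mcm4 and Orc1 were lower with FK506 at 2 h without nontreated replicate 1, and Orc1 without curdlan 2 h replicate 3. The difference of the FK506 effect between 4 h and 2 h was called for 0 of 36 genes, where 1.23% of all genes were called. It passed by adjusted p alone, higher at 4 h, in 3 genes, against 1.39% of all genes: Uhrf1 (0.41, SE 0.06, adjusted p = 0.0012), Cdt1 (0.33, SE 0.06, adjusted p = 0.00529) and Tk1 (0.32, SE 0.07, adjusted p = 0.0141). The number was 7 without nontreated replicate 1, 4 without curdlan 2 h replicate 1 or 2 and 3 without any other array, and with arrays centred on their median it was 0. With every probe set tested, and Tk1 read on its second one, it was 2, Cdt1 and Uhrf1.

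**Figure D4:**
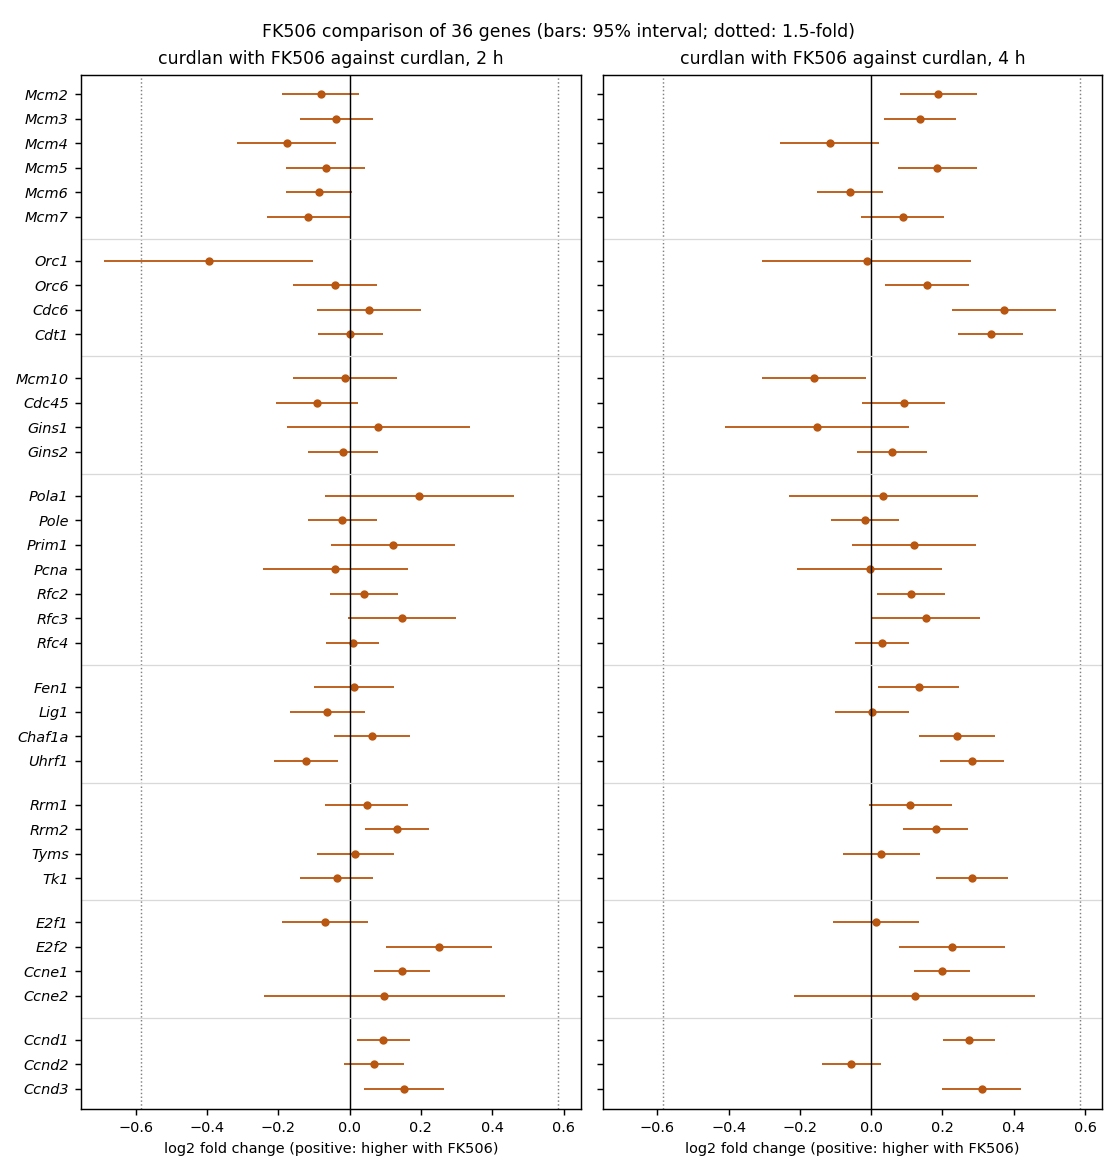
Log2 difference of each of the 36 genes between curdlan with FK506 and curdlan alone at 2 h (left) and 4 h (right), positive where FK506 was higher; points are limma estimates with 95% intervals, and dotted lines mark 1.5-fold. At 4 h Cdc6 (0.37) and Cdt1 (0.34) lie farthest to the right, and no interval reaches a dotted line.

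Other genes of the same processes were read from lists. At curdlan 4 h, 4.15% of all genes fell and 5.05% rose, and the counts of each list at that time stand beside these shares. Of 46 other replication genes measured, 21 fell and 1 rose at curdlan 4 h, with a median of −0.50. The largest falls were those of Clspn (−1.20), a checkpoint mediator at the fork, the polymerase subunits Pole2 (−1.15) and Pold1 (−1.11), and Dnmt1 (−1.04), the maintenance DNA methyltransferase. The 1 gene that rose, Top1 (0.95), encodes a topoisomerase that also acts in transcription. With FK506 at 4 h, 17 of the 46 fell and Top1 rose (0.74), where 2.43% of all genes fell and 589 of 19937 rose. In the direct FK506 comparison at 4 h 0 of the 46 were called, where 1.75% of all genes were. Of 31 other G1/S regulators, 9 fell and 0 rose at curdlan 4 h, with a median of −0.31, and the number that fell ranged from 6 to 13 over the alternatives. They were led by the repressor E2Fs E2f8 (−0.88) and E2f7 (−0.84), the pocket protein Rbl1 (−0.83) and Fbxo5 (−0.83), an inhibitor of the anaphase-promoting complex. At curdlan 2 h, where 1.40% of all genes fell and 2.20% rose, 3 of the 46 other replication genes fell, the nuclease Dna2 (−0.78), the origin recognition subunit Orc5 (−0.75) and the origin-firing kinase Cdc7 (−0.68), and 0 rose. Of the 31 G1/S regulators at curdlan 2 h, Myc, a growth-promoting transcription factor, was the 1 that rose (0.89, SE 0.04), and 2 fell, Fbxo5 (−0.74) and Cdkn1b (−0.60), which encodes the cyclin kinase inhibitor p27. These genes at 2 h were named after their values were seen.

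Genes that act later in the cycle fell too. Of 29 mitosis genes measured, 11 fell and 0 rose at curdlan 4 h, with a median of −0.50, led by Arhgap19 (−2.17) and followed by the kinase Aurkb (−1.10), the checkpoint kinase Bub1b (−0.75) and the transcription factor Foxm1 (−0.74). Arhgap19 was also the 1 gene of these 29 called in the FK506 comparison at 4 h, where 1.75% of all genes were called. It was higher with FK506 by 1.52 (SE 0.04). The count of mitosis genes that fell ranged from 8 to 22 over the alternatives. The replication-dependent histones, whose RNAs peak in S phase, gave 1 of 26 that fell, H2bc21 (−0.78), a share near that of all genes, and a median of −0.04. Over the alternatives 1 to 4 histones were called lower and their median ran from −0.28 to 0.07, and near-identical members make single histone values uncertain. Of 14 p53 target genes measured, 3 rose at curdlan 4 h, Plk2 (2.16), Eda2r (1.90) and Btg2 (1.26), and 0 fell. The median of the 14 was 0.13 and ran from 0.09 to 0.24 over the alternatives, in which 3 rose and 0 to 1 fell. At curdlan 2 h the same 3 rose (Btg2 by 2.10, Plk2 by 1.49 and Eda2r by 0.82) and Trp53inp1 fell (−1.15), where 2.20% of all genes rose and 1.40% fell. Plk2 (−1.31) and Eda2r (−1.40) were lower with FK506 at 4 h, where 1.75% of all genes were called in either direction. Of 9 housekeeping genes 0 were called at curdlan 4 h, with a median of 0.01 that ran from −0.12 to 0.11 over the alternatives. By adjusted p alone, Gusb (−0.25), Sdha (−0.23) and Polr2a (−0.15) were lower there and B2m (0.19) was higher. The others, Actb (0.01) and Tbp (−0.01) among them, did not pass.

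Genes with and without a promoter match overlapped in their change. The 12 measured genes with an E2F match had a median change of −0.89 at curdlan 4 h and ranged from −1.41 for Cdc6 to 0.01 for Orc1, and the 16 with a window and no match had a median of −0.70 and ranged from −1.20 for Tk1 to −0.30 for Pcna. For comparison, an E2F match occurred in 11 of 40 other replication genes (27.5%) and in 1 of 26 mitosis genes (3.85%), whereas a CCAAT box occurred in 21 of the 26 mitosis genes (80.8%). Across the groups, the lowest of the 5 means was that of curdlan 4 h in 28 of the 36 genes and that of curdlan with FK506 4 h in 6, Mcm4, Mcm6, Mcm10, Gins1, Pole and Pcna. The highest mean was that of nontreated cells in 29. These orders were counted for the 36 genes only, not over all genes.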

How the data were processed

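RNA of 15 D1 samples, in 5 groups of 3, was hybridised to Mouse Gene 1.0 ST arrays. The authors deposited log2 intensities per probe set, made by RMA in affy under R 2.15.2 according to the submitters' processing notes. RMA brings arrays to a common distribution, so a shift shared by all genes would not be seen. Of 34760 probe sets, 21640 had 1 gene symbol, 1321 several and 11799 none in the platform annotation. The probe set with the highest mean over the 15 arrays stood for each of 19937 genes, with no filter on low values.

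A mean per group was fitted with limma 3.58.1 in R 4.3.3 (lmFit and eBayes, 10 residual degrees of freedom), and 9 comparisons were tested, two-sided, with Benjamini-Hochberg adjustment over all genes. The script was tested on simulated data. The members and lists were chosen with earlier results of these data known. Values in every array are given for the 8 genes with the largest called change at curdlan 4 h, the D-type cyclins, E2f1, Ccne1, Ccne2, Pcna and genes called at 2 h, and from each list up to 4 called genes in each direction are named. A symbol match to RefSeq gave promoter windows. Alternatives comprised 11 other settings and leaving out each of the 15 arrays.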

Additional observations from a re-analysis of the deposited data

Results flagged for a closer look

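The change from nontreated cells differed between 4 h and 2 h in 16 of the 36 genes with curdlan and in 10 with curdlan and FK506, by the test of the difference between the times itself. All of these were lower at 4 h, with the largest difference at −0.87 for Mcm2 with curdlan and −0.82 for Gins1 with curdlan and FK506. Single values within a group of 3 arrays were not tested as outliers.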

How the results depend on the processing

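The counts of genes called at 4 h against nontreated cells stayed within 1.5 times of 25 (curdlan) and 19 (curdlan with FK506), except that 35 of 36 were called with FK506 when no fold threshold was set, 1 of them, Ccnd2, higher. That setting also gave 20 (curdlan) and 16 (with FK506) at 2 h, 35 and 34 between the times with 1 higher in each, and 2, 12 and 3 in the FK506 comparisons at 2 h, at 4 h and between the times. With 1 array left out, the count at curdlan 4 h ran from 22 to 27, that at 2 h from 0 to 1 with curdlan and from 0 to 1 with FK506, and the median at curdlan 4 h from −0.79 to −0.66. Centring arrays on their median gave medians of −0.61 (curdlan) and −0.54 (with FK506) at 4 h, −0.040 with FK506 at 2 h, −0.47 between the times with curdlan, 0.074 for FK506 at 2 h and −0.033 for its difference between the times, with 0 genes called at curdlan 2 h. The median of unnamed probe sets as a covariate gave −0.81, −0.68 and −0.63 for curdlan 4 h, FK506 4 h and curdlan between the times, 0.15 for the difference of the FK506 effect, and 1 called gene, Orc1, in the FK506 comparison at 2 h and 1 in its difference between the times. Array weights gave −0.79 and −0.69 at 4 h. Nontreated replicate 2 then had a weight of 5.42 beside 0.0781 and 0.707 for replicates 1 and 3, so that nontreated mean rests mostly on 1 array. Likewise, curdlan 2 h replicate 1 had a weight of 6.87 beside 0.744 and 0.119 for replicates 2 and 3, so the curdlan 2 h mean does too. Leaving out both outlying arrays gave −0.79 at curdlan 4 h and 1 called gene with FK506 at 2 h. Repeating the quantile normalization gave 0 called genes at curdlan 2 h, 5 between the times with FK506 and a median of 0.13 for the difference of the FK506 effect. The causes were not tested. Deviations of same-numbered arrays from their group means had a median correlation of 0.02 (from −0.73 to 0.58 over 30 pairs). With means of 3 arrays and 2 outlying arrays, this cannot exclude a pairing by number. With the replicate block 25 and 19 genes were called at 4 h.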
